A study of Mus musculus with 24 samples.

Results

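Anaplastic lymphoma kinase (Alk), its related receptor leukocyte tyrosine kinase (Ltk), the heparin-binding growth factors pleiotrophin (Ptn) and midkine (Mdk), and 2 further receptors of these growth factors, the receptor-type phosphatase Ptprz1 and the heparan sulfate proteoglycan syndecan-3 (Sdc3), were followed in single-nucleus RNA sequencing of the mouse brain. They were taken by symbol, all 6 of 6 were found, and they are 6 of the 32288 genes in the files. The group was proposed with measured values of these libraries in view, and mutant against control in deep brain oligodendrocytes was treated as the contrast it came from, so the values of the 6 genes in that contrast are a description with no test. Which values were in view is not stated beyond that. The p-values given for these genes in other classes and in cortex are therefore not independent support for the choice of genes. Each sets a difference against the spread over libraries.

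Nuclei came from 6 Pdgfb ret/ret mice (mutant; all female) and 6 Pdgfb ret/wt mice (control; 5 female and, as control 6, 1 male) of the strain labelled B6.Pdgfbtm3Cbet. The ret allele removes the retention motif of the growth factor PDGF-B, and homozygous mice lose pericyte coverage and develop calcified brain vessels. The allele is constitutive and the controls carry 1 copy of it, so no wild-type mouse is in the comparison. The mice were 4 months 7 days to 5 months 18 days old. From each mouse a deep brain sample, which is prone to calcification, and a cortex sample, in which vessels do not calcify, were sequenced as separate libraries, giving 4 groups of 6 and 24 libraries. The deep brain dissection covered pallidum, thalamus, hypothalamus, midbrain and pons, and the cortex dissection the cerebral cortex with the hippocampus. Libraries of the same number and genotype came from the same mouse.

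ALK and LTK are receptor tyrosine kinases of the insulin receptor superfamily. ALKAL1 and ALKAL2 are their dedicated ligands, while pleiotrophin and midkine have been described as further activators of ALK and as ligands of PTPRZ1, syndecans and other proteoglycans. PTPRZ1 is a receptor tyrosine phosphatase with chondroitin sulfate chains that pleiotrophin inactivates, and it is a known surface protein of oligodendrocyte precursor cells (OPC) and astrocytes. Pleiotrophin and midkine are growth factors of development and repair in the nervous system, and syndecan-3 is a neural syndecan that presents such factors at the cell surface.

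The genes were placed on GRCm38 with the GENCODE M21 annotation. Alk (ENSMUSG00000055471) lies on the minus strand at chr17:71868972-72604627, spans 735656 bases in 29 merged exons, and 98.9% of that span is intronic. Counts included intronic reads, so reads within the introns of this long gene count towards Alk. The libraries were made with a 5′ kit, and where in Alk the reads fell was not examined. None of the 4 annotated genes that overlap Alk is in the files. Ltk (ENSMUSG00000027297) lies at chr2:119751320-119760431, Ptn (ENSMUSG00000029838) at chr6:36714929-36810220 and Mdk (ENSMUSG00000027239) at chr2:91929805-91932297, all on the minus strand. Ptprz1 (ENSMUSG00000068748) lies on the plus strand at chr6:22875502-23052916, and Sdc3 (ENSMUSG00000025743) on the plus strand at chr4:130792537-130826319, where 2 genes of the opposite strand, Gm12970 and Gm26716, overlap it and are counted separately. Because spans differ from 2493 bases for Mdk to 735656 bases for Alk, levels were not compared between genes.

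The stretch before the start of Alk is shown because Alk is the gene whose level differed most between genotypes. RefSeq (GRCm38.p6) lists 5 of the 6 promoters, all but that of Mdk. The 250 bases upstream of the RefSeq start of Alk, at 72604307, lie on the minus strand at chr17:72604308-72604557. GENCODE has 3 transcript starts here, at 72603827 for the protein-coding Alk-201 and at 72604307 and 72604627 for the retained-intron Alk-203 and Alk-202, so the window lies within the exon of Alk-202 and upstream of the others. Capitals mark the matches of the motifs searched.

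Alk promoter: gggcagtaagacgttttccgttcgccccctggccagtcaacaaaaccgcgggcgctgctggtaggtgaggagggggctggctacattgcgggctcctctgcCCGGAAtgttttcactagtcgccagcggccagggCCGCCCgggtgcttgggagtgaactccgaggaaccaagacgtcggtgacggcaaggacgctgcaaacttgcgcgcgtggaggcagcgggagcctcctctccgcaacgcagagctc

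The window is 65.2% G and C, against a median of 52.4% over 32851 promoters. Both strands were searched for 6 motifs, which do not overlap in this window. The GC box GGGCGG was found 1 time, read on the opposite strand, as in 32.7% of all promoters, and the ETS core CCGGAA 1 time, as in 12.0%. CANNTG (an E-box, in 66.2% of promoters), TGACGTCA (1.55%), TTCNNNGAA (7.02%) and TATAAA (12.4%) had no match. A match is a description of letters and not a binding site.

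After filtering, 124958 deep brain and 79967 cortical nuclei remained. Deep brain libraries held 64736053 to 96459036 unique molecular identifiers (UMIs, each standing for 1 captured RNA molecule) and cortical libraries 23625232 to 95605387. The cortical libraries of mutants 5 and 6 and of control 5 were the deepest, each with more UMIs than any of the other 9 cortical libraries, here called the shallower ones, and the labels name no batch behind this split. Any pair of libraries shared 0.284% to 1.99% of the cell barcodes of the smaller library. Nuclei were clustered again from the counts, and clusters were named by marker genes, so that "oligodendrocytes" here stands for an oligodendrocyte-like class, and so on. Deep brain held 30186 oligodendrocytes, 67044 neurons, 10433 astrocytes, 3555 OPC, 3668 microglia, 1478 fibroblasts and 687 endothelial cells. Cortex held 6813 oligodendrocytes, 28740 neurons, 1614 astrocytes, 967 OPC and 1555 microglia, and 39450 cortical nuclei stayed unnamed, of which 34477 lay in 1 cluster with a median of 825 UMIs. A level is given as CPM, the UMIs of a gene per 1000000 UMIs of the class in a library, as mean ± SD over libraries.

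Each gene had its own distribution over the classes. In deep brain, Alk was highest in OPC (259 ± 42.3 CPM, n = 12 libraries of both genotypes) and neurons (187 ± 29.7), whose ranges over libraries overlapped. Alk then stood at 82.7 ± 61.1 in oligodendrocytes, 77.0 ± 25.4 in fibroblasts, 69.0 ± 61.9 in ependymal cells and 33.9 ± 19.8 in astrocytes, which overlapped each other widely. Levels of Alk in endothelial cells (10.0 ± 9.07), committed oligodendrocytes (8.95 ± 7.28) and microglia (6.96 ± 3.93) were the lowest of the classes found in all 12 libraries. Committed oligodendrocytes, the stage between OPC and oligodendrocytes, thus had a lower mean of Alk than either neighbour, with 20 UMIs over 320 nuclei. In cortex the order was OPC (204 ± 62.4), neurons (93.2 ± 8.36), oligodendrocytes (72.6 ± 59.6), astrocytes (66.6 ± 44.5), fibroblasts (25.8 ± 29.4, 10 libraries) and microglia (5.92 ± 5.62), each overlapping its neighbour in this order. These orders pool both genotypes. In control mice alone, Alk in oligodendrocytes (17.5 ± 8.18 in cortex and 28.7 ± 1.46 in deep brain) had a lower mean than in cortical astrocytes (45.3 ± 17.0), which it overlapped, and than in deep brain fibroblasts (80.5 ± 26.6), which it did not.

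Ltk was highest in neurons, at 14.4 ± 3.46 CPM in deep brain and 26.2 ± 3.57 in cortex. It stood at 10.3 ± 3.4 in the unnamed cortical nuclei, and 24 choroid plexus nuclei of 2 cortical libraries held 3 UMIs (17.7 ± 7.56). Deep brain oligodendrocytes held 45 Ltk UMIs over 30186 nuclei (0.507 ± 0.242 CPM), and no Ltk UMI was counted in 687 endothelial nuclei. Ptn, in contrast, was found in vascular and glial classes. Its deep brain level was 1349.5 ± 596 CPM in mural cells (9 libraries), 1311 ± 261 in fibroblasts, 944 ± 351 in endothelial cells, 772 ± 142 in oligodendrocytes, 729 ± 60.6 in OPC and 608 ± 107 in astrocytes, each overlapping its neighbour in this order. Neurons (126 ± 10.9) and microglia (102 ± 23.3) lay far lower. In cortex Ptn stood at 1921 ± 857 in fibroblasts (10 libraries), 1344 ± 215 in astrocytes, 1046 ± 231 in OPC, 851 ± 108 in oligodendrocytes, 186 ± 25.5 in neurons and 117 ± 45.0 in microglia.

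Mdk was a low-count gene with its highest mean in astrocytes, at 55.8 ± 22.0 CPM in deep brain and 54.7 ± 33.7 in cortex. Mural cells (36.8 ± 46.5, from 8 UMIs in 9 libraries), ependymal cells (32.6 ± 20.3), fibroblasts (31.1 ± 10.4), OPC (23.7 ± 6.88) and endothelial cells (19.0 ± 11.2) followed in deep brain, and neurons were the lowest at 3.63 ± 0.792. In cortex OPC (52.5 ± 37.3) and fibroblasts (48.8 ± 48.3, 10 libraries) overlapped the astrocytes, so these 3 classes had no order beyond their spread. Ptprz1 was concentrated in OPC (3264 ± 210) and astrocytes (2044 ± 188), which did not overlap, and was lower in committed oligodendrocytes (759.6 ± 184) and ependymal cells (624 ± 111). It stood at 151 ± 16.4 in neurons and 38.2 ± 9.84 in oligodendrocytes, the lowest mean of all classes, which fibroblasts (42.6 ± 17.4) and microglia (51.3 ± 22.9) overlapped. Ptprz1 in cortex was again highest in these 2 classes, with 4052 ± 570 in OPC, 2320.5 ± 344 in astrocytes and 30.7 ± 7.65 in oligodendrocytes, and microglia (28.4 ± 12.9) overlapped the oligodendrocytes. Sdc3 was highest in OPC (241 ± 31.4) and stood at 163 ± 129 in mural cells (9 libraries), 128 ± 26.1 in endothelial cells, 54.2 ± 14.1 in astrocytes, 45.4 ± 8.26 in microglia, 39.1 ± 3.83 in neurons and 15.1 ± 3.05 in oligodendrocytes. Over the oligodendrocyte lineage, Ptprz1 and Sdc3 were therefore high in the precursor and low in the mature class, while Ptn was at similar levels in both. The stage between them, committed oligodendrocytes, had 274 ± 80.8 CPM of Ptn, below every OPC and oligodendrocyte library.

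**Figure D1:**
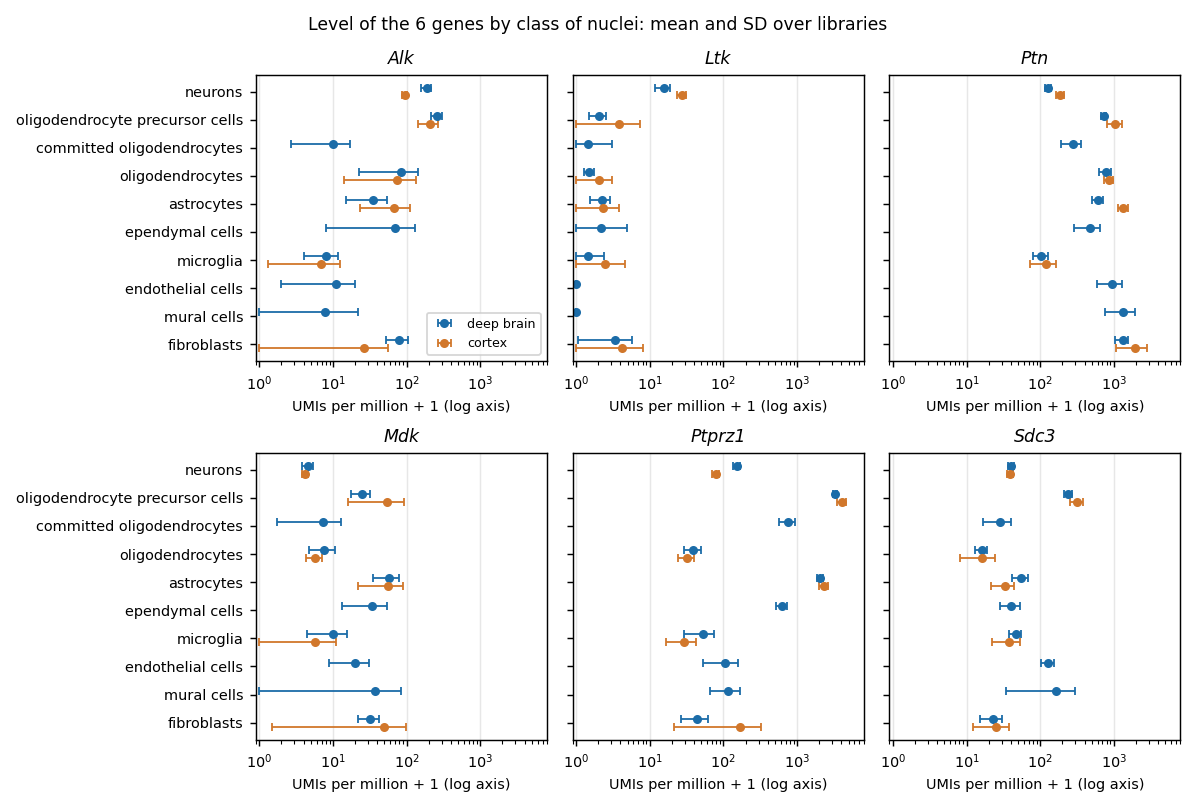
Level of each of the 6 genes by class, as CPM plus 1 on a log axis; points are means and bars SDs over deep brain (blue) and cortical (orange) libraries, with bars cut at 1 where they reach 0. Ltk is highest in neurons in both regions, Ptprz1 peaks in OPC and astrocytes, and the wide bars of Alk in oligodendrocytes hold the 2 genotypes together.

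Neurons were not uniform. In cortex, Alk reached 649.8 ± 139 CPM in control mice and 613 ± 76.2 in mutant mice in the GABAergic-like cluster led by Vip and Dlx6os1, and 511 ± 84.0 and 500.3 ± 32.3 in the cluster led by Kcnmb2, Kcnc2 and Sst. Alk was 15.4 ± 5.01 (control) and 13.5 ± 5.11 (mutant) in the most numerous cortical neuron cluster, led by Unc5d and Tafa1. In deep brain, pooled over libraries, Alk stood at 585 CPM in a GABAergic-like cluster of 1655 nuclei, at 383 in striatal-projection-like and 257 in dopaminergic-like neurons, and at 26.0 in forebrain-type glutamatergic-like neurons. Ltk ran the other way. It was highest in the forebrain-type glutamatergic-like cluster of deep brain (32.5 CPM) and stood at 4.78 in the GABAergic-like cluster where Alk was highest. A neuronal average of Alk or Ltk therefore depends on which neurons a dissection holds. By their markers, the neurons of the cortical libraries included 3399 striatal-projection-like and 1747 Slc17a6-type glutamatergic-like nuclei. Those of deep brain included 8238 forebrain-type glutamatergic-like nuclei and granule-neuron-like clusters. Cortical neurons here are thus the neurons of the cortex samples, whatever their type.

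In oligodendrocytes of the deep brain, the myelinating cells, Alk stood in control libraries 1 to 6 at 29.0, 26.4, 27.6, 30.5, 29.2 and 29.4 CPM. In mutant libraries 1 to 6 it stood at 129, 188, 159, 143, 113 and 88.9 CPM. The controls, the male included, lay within a narrow band, every mutant was above every control, and mutant 6 was the lowest and mutant 2 the highest of the mutants. The means were 28.7 ± 1.46 in control and 137 ± 34.8 in mutant mice (n = 6 each), a log2 difference of 2.28, from 1258 and 5795 UMIs. Alk alone of the 6 genes had groups of libraries that did not overlap in this class, which 1.95% of the 13518 genes fitted there also had, and 1.67% of them passed an adjusted p of 0.05. Since this contrast chose the genes, nothing is read from these shares.

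The difference was spread over nuclei and over subclasses. After every nucleus was thinned to 1000 UMIs, 2.20 ± 0.24% of control and 11.1 ± 2.90% of mutant oligodendrocyte nuclei of the deep brain had an Alk UMI. Without thinning the shares over all nuclei were 5.34% and 22.5%, at median depths of 2615 and 2731.5 UMIs. In microglia, a class with one of the lowest levels of Alk, the thinned shares were 0.577 ± 0.28% and 1.00 ± 0.65%, at median depths of 2346 and 2155 UMIs. How much of the shares, here and in cortex, comes from free RNA was not tested. Of control oligodendrocyte nuclei 1.71% and of mutant ones 9.56% had 2 or more Alk UMIs. In the cluster with Il33 and Mobp among its leading genes (9668 control and 8815 mutant nuclei) Alk was 12.8 ± 2.80 CPM in control and 95.9 ± 36.1 in mutant libraries. In the cluster led by Prr5l, Anln and Hapln2 (5950 and 5753 nuclei) it was 50.2 ± 7.32 and 189 ± 46.7. Alk differed between the genotypes in both clusters, and the second cluster was higher in both genotypes.

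The markers of other classes within these oligodendrocyte nuclei were compared, since neurons and OPC carry more Alk. The summed level of 5 neuronal markers was 591 ± 106 CPM (406 to 692) in control and 560 ± 189 (376 to 908) in mutant libraries, and that of 5 OPC markers was 190.4 ± 22.0 and 192 ± 3.29. The OPC receptor Pdgfra stood at 7.47 and 7.78 CPM and the neuronal gene Rbfox3 at 16.2 and 14.9, while the myelin gene Mog stood at 1136 and 1148. The ranges of both sums overlapped between the genotypes. The makeup of deep brain neurons differed between genotypes, with 6100 control and 2138 mutant nuclei in the forebrain-type glutamatergic-like cluster. The part of the dissection in the Alk values of deep brain oligodendrocytes and astrocytes was not tested.

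Cortical oligodendrocytes were compared in the same way, in libraries of the same mice whose values may also have been in view when the genes were chosen. Alk stood in control libraries 1 to 6 at 16.8, 15.1, 18.4, 13.8, 32.6 and 8.21 CPM. In mutant libraries 1 to 6 it stood at 126, 163, 129, 111, 137 and 100.3 CPM. Every mutant was again above every control, with no overlap and with control 5 the highest of the controls. The means were 17.5 ± 8.18 and 128 ± 21.6 (174 and 1711 UMIs), and Alk was higher in mutant mice by 2.73 ± 0.22 on the log2 scale (± standard error, adjusted p = 5.9e-07, edgeR quasi-likelihood test). Alk was the single call among the 4 genes tested there, where 1.09% of all 10054 genes passed, and the single gene of the 4 with groups that did not overlap, as 1.31% of all genes had. These values may have helped to choose the genes, so the p-value is no independent support and nothing is read from the shares. Leaving out any library gave 2.59 to 3.18, and the 9 shallower libraries alone gave 3.23 ± 0.19. The thinned share of nuclei with an Alk UMI was 1.22 ± 0.77% in control and 10.8 ± 2.07% in mutant libraries, against 0.474% and 0.528% in cortical microglia. The log2 difference was thus 2.28 in deep brain, described only, and 2.73 in cortex, with the region difference of the effect not tested.

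**Figure D2:**
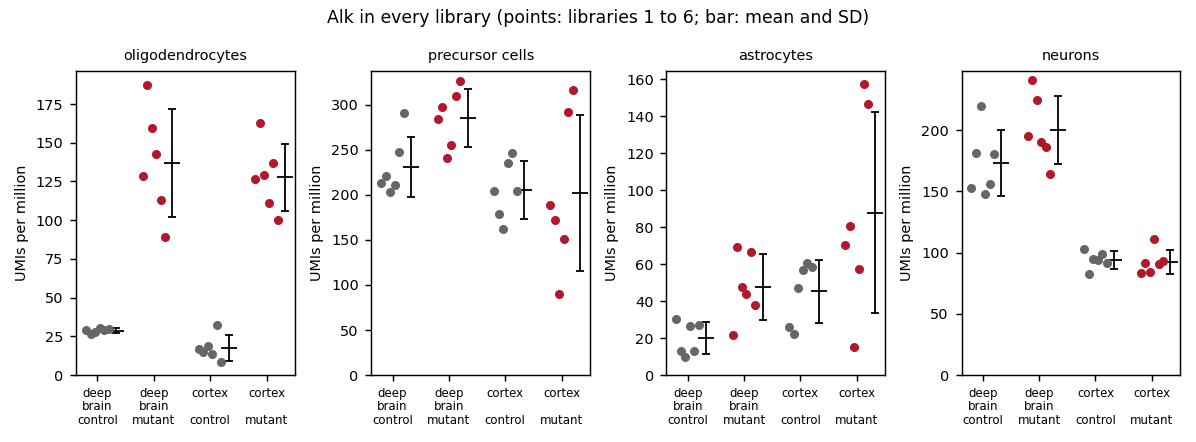
Alk in CPM in each library of 4 classes (grey control, red mutant; points are libraries 1 to 6 from left to right, bars mean and SD). In oligodendrocytes every mutant library is above every control library in both regions, while groups overlap in OPC, astrocytes and neurons.

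In deep brain astrocytes Alk was also higher in mutant mice, with overlap. Control libraries 1 to 6 stood at 30.3, 13.1, 9.96, 26.6, 13.2 and 27.0 CPM. Mutant libraries 1 to 6 stood at 21.5, 69.5, 47.4, 43.8, 66.4 and 38.0 CPM. Mutant 1 lay among the controls and the other 5 mutants lay above all of them. The means were 20.0 ± 8.87 and 47.8 ± 18.0, and Alk rose by 1.26 ± 0.29 on the log2 scale (adjusted p = 0.018, edgeR). Alk and Mdk were the 2 calls among 5 genes tested in this class, where 4.95% of all genes passed. Without control 5 the difference of Alk was 1.14 with an adjusted p of 0.0516. The astrocyte cluster with Gli3 and Aqp4 among its leading genes had a mean Alk of 44.8 ± 23.1 CPM in control and 176 ± 58.4 in mutant mice (1.92 ± 0.25, adjusted p = 6.2e-05). This cluster held 1396 control and 1158 mutant nuclei, 107 of them from mutant 1. The larger cluster, of 3226 control and 4574 mutant nuclei and led by Slc6a11, Etnppl and Itih3, had 6.92 and 12.0 CPM (0.78 ± 0.20, adjusted p = 0.029). The class value of a library thus also holds its mix of the 2 clusters. These fits of each cluster by itself were chosen after seeing the data. In the same nuclei the summed level of neuronal markers was 734 ± 89.7 in control and 1062 ± 207 in mutant libraries and that of OPC markers 214 ± 47.9 and 342 ± 67.9, while the defining genes Pdgfra (6.08 and 6.29) and Rbfox3 (14.0 and 14.5) were at like levels. The part of these marker levels in the Alk result was not tested.

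In cortical astrocytes no gene of the 5 tested passed (edgeR; 4 had an unadjusted p under 0.05, DESeq2 called 0, and 1.97% of all genes passed). Alk had a lowest, median and highest value of 22.3, 52.1 and 60.4 CPM in control and of 15.1, 75.3 and 157 in mutant libraries, and the difference was 1.08 ± 0.32 (adjusted p = 0.088). Mutants 5 and 6, at 157 and 147 CPM, were the highest and are the mutant libraries with the most UMIs. They are also the youngest mutants, at 4 months 7 days and 4 months 9 days, so depth and age cannot be told apart here. The 9 shallower libraries alone gave 0.47 ± 0.33 (adjusted p = 0.60). With the replicate number as a block the difference was 1.05 (adjusted p = 0.0117), with age as a block 1.03 (adjusted p = 0.0269) and with no filter on low counts it was 1.09 (adjusted p = 0.00023), each past the threshold. Cortical astrocyte nuclei numbered 26 to 464 per library.

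In OPC, where Alk was highest, differences were smaller. Alk in deep brain OPC had a lowest, median and highest value of 203, 217 and 292 CPM in control and of 242, 291 and 326 in mutant libraries, which overlap. The log2 difference was 0.32 ± 0.09 (adjusted p = 0.32, edgeR). None of 5 genes was called there (3 had an unadjusted p under 0.05, DESeq2 called 0, and 0.0454% of all genes passed). In cortical OPC Alk was 205 ± 32.3 and 202 ± 86.7 CPM (0.09 ± 0.19, adjusted p = 0.98), none of 5 genes was called, and 0% of all genes passed (0 genes at an unadjusted p under 0.05 among the 5, 323 among all genes; DESeq2 called 0 of the 5 and 1 of all genes).

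Neurons of the deep brain had 173 ± 26.9 CPM of Alk in control and 200.4 ± 27.9 in mutant mice, an overlapping difference of 0.22 ± 0.11 (adjusted p = 0.43, edgeR). The makeup of this class differed between genotypes. The forebrain-type glutamatergic-like cluster, low in Alk, held 6100 control and 2138 mutant nuclei. The largest granule-neuron-like cluster held 486 control and 2208 mutant nuclei, with 58.2% of them from 1 library. Another held 15 and 1649, with 71.2% from 1 library, and the smallest held 94 and 106. In the most numerous neuron cluster alone, the Alk difference was 0.09 ± 0.10. None of 6 genes was called (2 at an unadjusted p under 0.05, DESeq2 called 1, Mdk, and 0.291% of all genes passed). Alk in cortical neurons was 93.9 ± 7.03 and 92.4 ± 10.1 CPM (0.01 on the log2 scale), and none of 6 genes was called (1 at an unadjusted p under 0.05, DESeq2 called 0, and 0.00591% of all genes passed).

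Alk in deep brain fibroblasts was 80.5 ± 26.6 and 73.5 ± 26.1 CPM (−0.16 ± 0.24, adjusted p = 0.99, edgeR), with none of 4 genes called (1 at an unadjusted p under 0.05; 0% of all genes passed, with 430 genes at an unadjusted p under 0.05 and 3 called by DESeq2, none of them among the 4). Alk was below the count filter in microglia (5.76 and 8.17 CPM in deep brain) and in endothelial cells (13.5 and 6.55 CPM), and without that filter the differences were 0.51 ± 0.46 (adjusted p = 0.76) and −0.62 ± 0.72 (adjusted p = 0.80). Ltk, the related receptor, passed the filter in neurons alone. In deep brain neurons it had a lowest, median and highest value of 12.5, 15.7 and 21.7 CPM in control and of 9.53, 11.7 and 17.8 in mutant libraries, an overlapping difference of −0.35 ± 0.15 (adjusted p = 0.37). In cortical neurons Ltk was 27.2 ± 3.35 and 25.3 ± 3.83 CPM (−0.06, adjusted p = 0.92). The forebrain-type cluster, in which Ltk was highest, held fewer mutant than control nuclei, as given above, and the part of this in the Ltk value was not tested.

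Of the ligands, Mdk differed between genotypes in deep brain astrocytes. Control libraries 1 to 6 stood at 34.8, 44.3, 45.5, 33.3, 31.3 and 36.9 CPM of Mdk. Mutant libraries 1 to 6 stood at 79.4, 84.6, 87.4, 63.7, 81.4 and 46.9 CPM. No mutant overlapped a control, as for 2.39% of all genes there, and mutant 6, the lowest, was just above the highest control. The means were 37.7 ± 5.89 and 73.9 ± 15.6, and Mdk rose by 0.98 ± 0.14 on the log2 scale (adjusted p = 0.00096, edgeR), with 0.92 to 1.07 when any library was left out. Mdk was higher in the Slc6a11-led cluster (42.2 to 81.9 CPM, 0.96 ± 0.15, adjusted p = 0.0012) and in the cluster with Gli3 (27.4 to 49.3 CPM, 0.82 ± 0.18, adjusted p = 0.0075). In the Slc6a11-led cluster the groups overlapped, with mutant 6 at 44.6 CPM below controls 2 and 3 at 49.3 and 47.1. After thinning, 3.82 ± 0.72% of control and 7.18 ± 1.22% of mutant astrocytes had a Mdk UMI, against 0.444% and 0.543% of neurons, at median depths of 3456 and 3124 UMIs in astrocytes and 10579 and 9165 in neurons. The thinned shares, control and mutant, were 0.593 ± 0.47% and 1.75 ± 0.64% in deep brain microglia, 0.458 ± 0.18% and 0.897 ± 0.22% in oligodendrocytes and 1.5 ± 2.77% and 4.95 ± 0.86% in endothelial cells, so the share with a Mdk UMI had a higher mutant mean in these classes too. How much of these shares comes from free RNA was not tested.

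Mdk in cortical astrocytes did not pass. Its lowest, median and highest values were 28.5, 32.8 and 55.5 CPM in control and 30.9, 59.5 and 126 in mutant libraries, with a difference of 0.71 ± 0.32 (adjusted p = 0.36, edgeR). Mutants 1, 2 and 3 stood at 77.8, 114 and 126 CPM, above all controls, and mutants 4, 5 and 6 at 41.1, 30.9 and 40.0. The 9 shallower libraries alone, chosen after seeing the data, gave 1.12 ± 0.31 (adjusted p = 0.0472). Mdk in deep brain oligodendrocytes, a description, was 4.59 ± 0.77 CPM (3.62 to 5.66) in control and 8.69 ± 2.81 (4.61 to 12.3) in mutant libraries, a log2 difference of 0.94 in which mutant 6 overlapped the controls. In cortical oligodendrocytes, where Mdk was below the filter, it was 4.87 ± 1.84 and 4.51 ± 0.82 CPM.

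In deep brain microglia, Mdk had 4.51 ± 2.90 CPM (1.77 to 10.0) in control and 13.3 ± 3.18 (8.15 to 17.5) in mutant libraries, from 79 UMIs in all. It fell below the count filter there, and without that filter its adjusted p was 0.0362. Of the genes tested in deep brain microglia, Ptn, Ptprz1 and Sdc3, none was called (0 at an unadjusted p under 0.05, DESeq2 called 0, and 0.253% of all genes passed). Mdk in endothelial cells was 12.7 ± 9.23 and 25.4 ± 9.79 CPM, from 10 and 25 UMIs, also below the filter, and without it the difference was 1.06 ± 0.61 (adjusted p = 0.68). Mdk was 3.07 ± 0.29 and 4.19 ± 0.74 CPM in deep brain neurons (0.44 ± 0.13, adjusted p = 0.16 with edgeR and 0.0442 with DESeq2), 19.6 ± 6.70 and 27.9 ± 4.23 in deep brain OPC (0.49 ± 0.19, adjusted p = 0.75), and 25.4 ± 5.70 and 36.8 ± 11.3 in deep brain fibroblasts (0.55 ± 0.25, adjusted p = 0.86). The mean of Mdk was higher in the mutant in each deep brain class listed, and astrocytes gave the only call. In cortical OPC (−0.52 ± 0.37, adjusted p = 0.89) and cortical neurons (3.19 CPM in both genotypes) it was not higher.

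**Figure D3:**
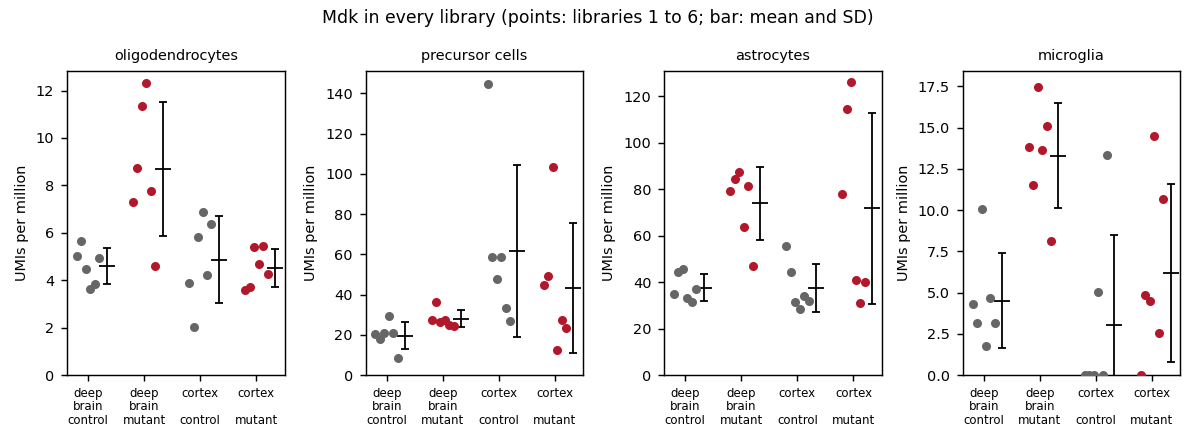
Mdk in CPM in each library of 4 classes (grey control, red mutant; points are libraries 1 to 6 from left to right, bars mean and SD). Deep brain astrocytes separate by genotype (controls up to 45.5, mutants from 46.9), while cortical astrocytes and OPC overlap.

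Ptn, the other growth factor, passed in no genotype comparison tested. Its description in deep brain oligodendrocytes was 697 ± 82.3 CPM (588 to 787) in control and 846 ± 155 (582 to 1034) in mutant libraries, a log2 difference of 0.31 with overlap. Ptn in cortical oligodendrocytes was 813 ± 62.6 and 889 ± 136 CPM (0.16 ± 0.10, adjusted p = 0.57, edgeR). In deep brain astrocytes Ptn was 606 ± 128 and 610.2 ± 93.5 CPM (−0.01, adjusted p = 0.99). There the cluster with Gli3 had 966 ± 96.1 and 1242 ± 129 CPM (0.34 ± 0.10, adjusted p = 0.0606), which did not pass. Ptn was also not called in OPC of deep brain (718 ± 55.3 and 739.6 ± 68.7 CPM) or cortex (1139 ± 289.5 and 954 ± 114 CPM), in endothelial cells (929 ± 243 and 959.9 ± 461 CPM) or in deep brain fibroblasts (1269 ± 268 and 1352.5 ± 272 CPM). In endothelial cells none of 3 genes was called (0 at an unadjusted p under 0.05, DESeq2 called 0, and 1.33% of all genes passed). Ptn was the sole gene tested in cortical microglia, where it was not called (123 ± 59.1 and 112 ± 29.8 CPM, −0.15, adjusted p = 0.94; 0 at an unadjusted p under 0.05, DESeq2 called 0, and 0.467% of all genes passed).

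The receptors Ptprz1 and Sdc3 passed in no genotype comparison tested. In OPC, where both were highest, Ptprz1 was 3213 ± 244 and 3315 ± 178 CPM in deep brain (0.06) and 4032 ± 642 and 4071 ± 549 in cortex (0.03). Sdc3 in OPC was 226 ± 13.4 and 255 ± 38.3 CPM in deep brain (0.19 ± 0.09, adjusted p = 0.90, edgeR) and 319 ± 90.1 and 310.0 ± 35.0 in cortex (−0.03). In deep brain astrocytes Ptprz1 was 2122 ± 208 and 1965 ± 141 CPM (−0.12, adjusted p = 0.51) and in cortical astrocytes 2533 ± 287 and 2108 ± 262 (−0.27 ± 0.11, adjusted p = 0.31). The cortical astrocytes of mutant mice also had the lower Sdc3, with a lowest, median and highest value of 26.1, 38.8 and 53.8 CPM in control and of 10.1, 27.5 and 28.8 in mutant libraries (−0.66 ± 0.22, adjusted p = 0.15). In deep brain oligodendrocytes, as a description, Ptprz1 was 37.4 ± 8.49 and 38.9 ± 11.8 CPM (0.08) and Sdc3 15.4 ± 4.11 and 14.8 ± 1.83 (−0.04). In cortical oligodendrocytes Ptprz1 was 34.0 ± 6.77 and 27.5 ± 7.57 CPM (−0.30 ± 0.18, adjusted p = 0.54) and Sdc3 17.5 ± 10.7 and 12.9 ± 3.53 (−0.41 ± 0.31, adjusted p = 0.65). Ptprz1 in deep brain endothelial cells was 85.6 ± 38.2 and 125 ± 61.5 CPM (0.56 ± 0.32, adjusted p = 0.60), with 24 to 82 nuclei per library.

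**Figure D4:**
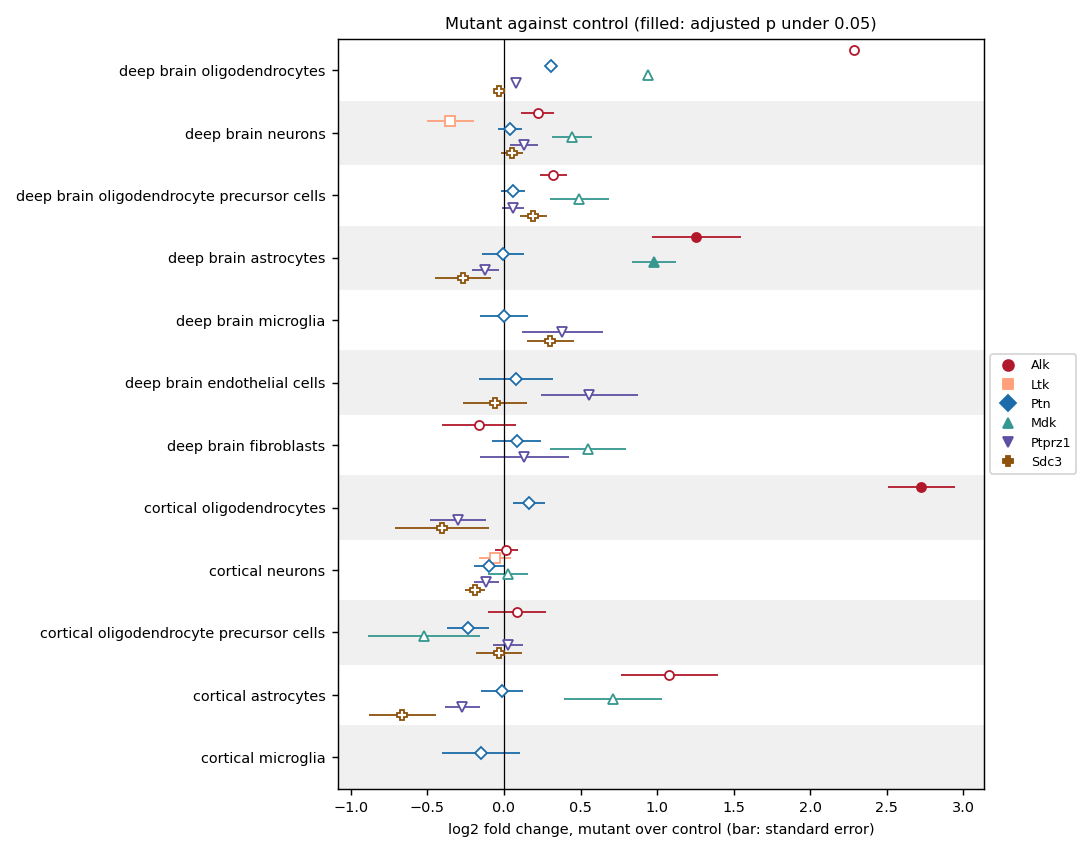
Log2 fold change, mutant over control, of each gene in each class in which it was fitted; bars are standard errors, filled symbols passed an adjusted p of 0.05, and deep brain oligodendrocytes carry no bars since they are described only. The 3 filled symbols are Alk in cortical oligodendrocytes and Alk and Mdk in deep brain astrocytes.

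The regions were compared within control mice, deep brain over cortex, with the mouse as a block, and these comparisons share their control libraries with the genotype comparisons above. Control deep brain libraries held 66559088 to 96459036 UMIs. Control cortical libraries held 28224094 to 34603641, apart from control 5 with 95605387. Except in control 5, a mouse's deep brain library was thus far deeper than its cortical one, and the mouse block does not remove this. The part of depth in the region values was not tested. In neurons 5 of 6 genes were called, where 41.2% of all genes passed. Alk was 93.9 ± 7.03 CPM in cortex and 173 ± 26.9 in deep brain (0.76 ± 0.09, adjusted p = 0.00025, edgeR) and Ptprz1 82.1 ± 6.99 and 144 ± 18.7 (0.69 ± 0.08, adjusted p = 0.00022), both higher in deep brain with no overlap between regions, as 18.3% of all genes had. Ltk was 27.2 and 16.1 CPM (−0.87 ± 0.07, adjusted p = 4.8e-05) and Ptn 196 ± 29.6 and 125 ± 6.59 (−0.74 ± 0.08, adjusted p = 0.00021), both lower in deep brain, again with no overlap. Sdc3 was lower by a small amount (−0.21 ± 0.04, adjusted p = 0.0054) and Mdk did not pass (−0.16, adjusted p = 0.36). The regions hold different neurons, as their clusters show, so these values describe the neurons of each dissection.

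In astrocytes 4 of 5 genes were called between regions, where 13.4% of all genes passed. Ptn was lower in deep brain, at 1349 ± 216 CPM in cortex and 606 ± 128 in deep brain (−1.19 ± 0.09, adjusted p = 2.1e-11, edgeR), with the lowest cortical library at 1109.8 above the highest deep brain library at 779.9, a separation that 5.77% of all genes had. Alk was lower too, at 45.3 ± 17.0 and 20.0 ± 8.87 CPM (−1.35 ± 0.23, adjusted p = 4.8e-05), as was Ptprz1, at 2533 ± 287 and 2122 ± 208 (−0.28 ± 0.07, adjusted p = 0.0092). Sdc3 was higher, at 39.8 ± 9.55 and 58.8 ± 11.6 CPM (0.53 ± 0.15, adjusted p = 0.013, and 0.0685 with DESeq2). Without the mouse as block, Ptprz1 (adjusted p = 0.0911) and Sdc3 (adjusted p = 0.0841) did not pass, nor did Ptprz1 with no filter on low counts (adjusted p = 0.0691) or Sdc3 without control 5 (adjusted p = 0.0707). The named astrocytes of cortex were 1 cluster, with Gli3 among its leading genes, while most of those of deep brain control mice lay in the Slc6a11-led cluster. Within deep brain controls the Slc6a11-led cluster had 6.92 ± 1.43 CPM of Alk, 427 ± 66.9 of Ptn and 70.1 ± 12.5 of Sdc3, and the cluster with Gli3 had 44.8 ± 23.1 of Alk, 966 ± 96.1 of Ptn and 33.4 ± 6.41 of Sdc3, so Alk and Sdc3 of the Gli3 cluster overlapped the cortical values and its highest Ptn, 1072.8, was below the lowest cortical one. The regions hold different astrocytes in this sense, and the part of the mix was not tested. Mdk did not pass between the regions of control mice (37.6 ± 10.4 and 37.7 ± 5.89 CPM, −0.04, adjusted p = 0.94).

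In OPC 4 of 5 genes were called between regions, where 5.31% of all genes passed, and all 4 were lower in deep brain. Mdk was 61.7 ± 42.6 CPM in cortex and 19.6 ± 6.70 in deep brain (−1.47 ± 0.22, adjusted p = 1.8e-06, edgeR), Ptn 1139 ± 289.5 and 718 ± 55.3 (−0.62 ± 0.09, adjusted p = 4.9e-07), Sdc3 319 and 226 (−0.48 ± 0.11, adjusted p = 0.002) and Ptprz1 4032 and 3213 (−0.31 ± 0.08, adjusted p = 0.0083). Without control 2, Sdc3 (−0.37, adjusted p = 0.0696) and Ptprz1 (−0.29, adjusted p = 0.0844) no longer passed. Ptprz1 also did not pass with no filter on low counts (−0.24, adjusted p = 0.135), without the 8% of nuclei with the highest doublet scores (−0.27, adjusted p = 0.0522) or without nuclei carrying another class's defining gene (−0.28, adjusted p = 0.0670). Alk did not pass in OPC (0.17, adjusted p = 0.50). Cortical OPC numbered 16 to 260 per library.

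In oligodendrocytes 2 of 5 genes were called between regions, where 9.11% of all genes passed, and both were near the threshold. Alk was 17.5 ± 8.18 CPM in cortex and 28.7 ± 1.46 in deep brain (0.60 ± 0.19, adjusted p = 0.049, edgeR), and Ptn 813 ± 62.6 and 697 ± 82.3 (−0.23 ± 0.07, adjusted p = 0.041). Alk passed only without control 5 of the 6 fits that left out a mouse (0.98, adjusted p = 0.0024, and 0.45 to 0.58 in the others, with adjusted p from 0.0908 to 0.143), and Ptn only without control 4. Control 5, whose cortical library was the deepest of the controls, was the only mouse with more Alk in cortex than in deep brain. Without the mouse as block neither passed in edgeR (Alk 0.51, adjusted p = 0.155, and Ptn −0.22, adjusted p = 0.189). Over 8 other settings, this one included, Alk passed in 4 and Ptn in 5. In microglia none of 3 genes was called between regions (0 at an unadjusted p under 0.05, DESeq2 called 0, and 3.89% of all genes passed), with Ptn at −0.24, Ptprz1 at 0.53 and Sdc3 at 0.27.

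**Figure D5:**
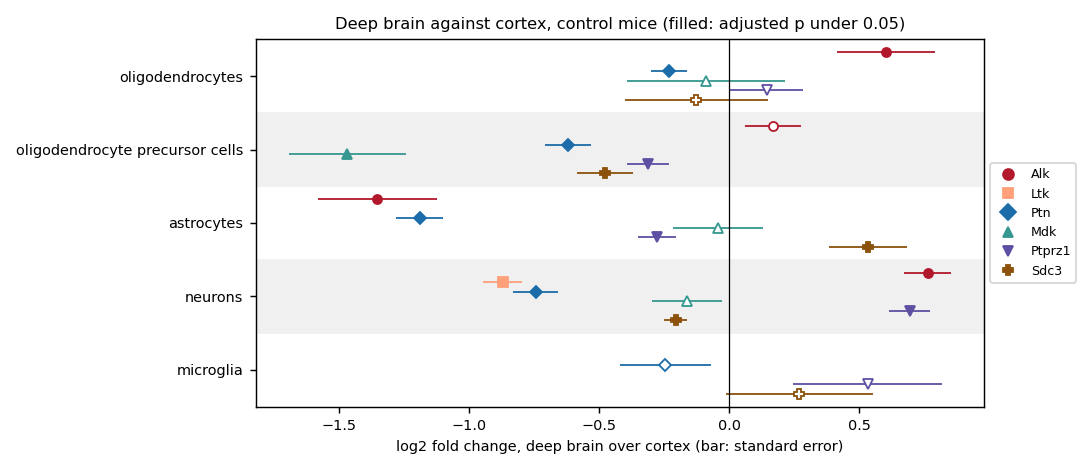
Log2 fold change, deep brain over cortex in the 6 control mice, of each gene in 5 classes; bars are standard errors and filled symbols passed an adjusted p of 0.05. Ptn is to the left of 0 in every class, while Alk is on the right in oligodendrocytes, OPC and neurons and on the left in astrocytes.

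Other genes of the pathway were read from 3 lists with 56 genes in the files, namely further ligands and receptors (16), partners of PTPRZ1 (15), and signal transduction and targets of ALK (25). In deep brain oligodendrocytes 1 of 49 genes tested was higher in mutant mice and 0 were lower, against the 1.67% of all genes that passed in either direction. It was Cntn1, a contactin that binds PTPRZ1, at 91.4 ± 8.62 CPM in control and 180.3 ± 48.0 in mutant libraries, a log2 difference of 1.01, with no overlap. This is the contrast that chose the genes, so the count and the value are a description. The median log2 difference of the listed genes was 0.02, against 0.00 over all genes. In cortical oligodendrocytes Cntn1 rose (104 ± 20.2 to 172 ± 37.3 CPM, 0.75 ± 0.15, adjusted p = 0.018, edgeR) and Vgf, which encodes a secreted neuropeptide precursor, fell (39.7 ± 10.3 to 22.7 ± 4.27 CPM, −0.78 ± 0.17, adjusted p = 0.034), of 41 tested and against 1.09% of all genes. The kinases, adaptors and transcription targets of the ALK list otherwise gave no call in oligodendrocytes of either region.

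In deep brain astrocytes Tnr, the matrix glycoprotein tenascin-R that binds PTPRZ1 and contactins, rose from 46.0 ± 6.60 to 104 ± 23.4 CPM (1.17 ± 0.14, adjusted p = 0.00033) with no overlap (2.39% of all genes), and Pik3r1, a regulatory subunit of phosphoinositide 3-kinase, fell from 315 ± 29.6 to 226 ± 45.6 (−0.50 ± 0.12, adjusted p = 0.023), of 49 tested and against 4.95% of all genes. In cortical astrocytes Nfasc, the adhesion molecule neurofascin, rose from 75.1 ± 11.9 to 149.7 ± 31.8 CPM (0.95 ± 0.16, adjusted p = 0.0018) with no overlap (1.6% of all genes), of 40 tested and with 1.97% of all genes called. Tnr and Nfasc are known from the oligodendrocyte lineage and from neurons. In cortical astrocytes the summed level of OPC markers was 119 ± 20.0 CPM in control and 201 ± 63.3 in mutant libraries and that of neuronal markers 1147 ± 159 and 1424 ± 226, and, as in deep brain, the part of these markers was not tested. In the other 8 genotype comparisons 0 listed genes passed, of 23 to 55 tested by edgeR.

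The dedicated ligands Alkal1 and Alkal2 passed the count filter in neurons alone. They were singled out after their values were seen. Alkal2 stood in control neurons at 2.57 ± 1.5 CPM in deep brain and 4.84 ± 0.83 in cortex (−1.19 ± 0.28, adjusted p = 0.0077), and Alkal1 at 0.205 ± 0.183 and 1.02 ± 0.64 (−2.41 ± 0.52, adjusted p = 0.0055). Between genotypes Alkal2 was 1.56 ± 0.70 in mutant deep brain neurons (−0.74 ± 0.38, adjusted p = 0.47) and 4.97 ± 1.63 in mutant cortical neurons (0.06, adjusted p = 0.96). In both regions the dedicated ligands were thus seen at a mean under 5 CPM, and in no glial class did they pass the filter.

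Between regions, the listed genes passed in 39 of 56 tested in neurons (17 higher and 22 lower in deep brain, against 41.2% of all genes), in 15 of 48 in astrocytes (6 and 9, against 13.4%), in 8 of 47 in oligodendrocytes (1 and 7, against 9.11%), in 6 of 45 in OPC (3 and 3, against 5.31%) and in 3 of 38 in microglia (1 and 2, against 3.89%). The lists were not tested against other genes. In astrocytes, the proteoglycan Cspg5 (−1.17), the scaffold Magi3 (−1.25) and tenascin-C, Tnc (−1.14), were lower in deep brain, as Ptn and Ptprz1 were, while Cntn1 was higher (0.98). In oligodendrocytes the adhesion molecule Nrcam (−1.04), Tnr (−0.81), Vgf (−0.73) and the integrin subunit Itgb1 (−0.54) were lower in deep brain. In OPC Etv5, a transcription factor induced by ALK signaling, was higher in deep brain (0.51) and Tnc (−0.96), Itgb1 (−0.41) and Cspg5 (−0.31) were lower. In neurons Gab1 (0.88) was higher and Itgav (−1.09), Etv5 (−0.75) and Pik3r1 (−0.50) were lower.

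The genes whose class pattern was most like that of each member were found over 19 means of a class in a region, as Pearson's r of log2(CPM + 1). The points share libraries and depth and r is a description. For Alk these were the axon guidance receptor Robo1 (0.87), Wnk3 (0.86) and Zgrf1 (0.85), for Ltk Rapgefl1 (0.93), the potassium channel Kcnk4 (0.92) and Gm17171 (0.89), for Ptn Nkd1 (0.85), Tmem9b (0.85) and Lncppara (0.84), for Mdk F3 (0.89) and Bcl6 (0.88), for Ptprz1 the proteoglycan Bcan (0.96), Slitrk2 (0.94) and Gm4675 (0.94), and for Sdc3 the signaling inhibitor Spry4 (0.90), Hapln3 (0.85) and Rasl11a (0.82). Across the 12 deep brain libraries, the oligodendrocyte levels most like those of Alk were those of Gm28322 (r = 0.99), the complement gene C4b (0.98), the nuclear receptor Rora (0.98), the Notch coactivator Maml2 (0.97) and the calcium channel Cacna1a (0.97). Their means, control to mutant, were 9.98 ± 1.65 to 58.7 ± 16.9 CPM for Gm28322, 19.6 ± 3.71 to 76.0 ± 22.9 for C4b, 176 ± 15.0 to 371 ± 55.2 for Rora, 71.6 ± 5.97 to 123 ± 17.9 for Maml2 and 46.8 ± 6.62 to 111 ± 9.83 for Cacna1a. The libraries fall into the 2 genotypes, so these values of r hold mostly the difference between genotypes.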

How the data were processed

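Nuclear RNA from deep brain and cortex of 6 mutant and 6 control mice was sequenced with the 10x 5′ gene expression kit (v2, dual index), and the authors made counts of UMIs per gene and nucleus with bcl2fastq 2.20.0.422 and Cell Ranger 5.0.1 on mm10, introns included. The deposited values are raw counts in 1 filtered matrix per library. No per-sample column was left unused.

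Nuclei with 500 to 7000 genes and at most 20% mitochondrial UMIs were kept. Each region was clustered with Seurat 5.3.0 (2000 variable genes, 20 principal components, resolution 0.01 and then 0.1 within clusters). A cluster was named when at least 3 markers of a class exceeded the other clusters by 2-fold (10 CPM added). It stayed unnamed when mitochondrial or ribosomal RNA genes led, when markers of another class led, or when another class's markers reached 25% of that class's level. A cluster with median UMIs under 1/3 of its libraries' also stayed unnamed if none of its class markers was among its 10 leading genes. These limits were set after seeing the clusters. The microglia of deep brain include 265 macrophage-like nuclei, in a cluster led by F13a1, Cd74 and Mrc1. The cortical cluster led by the same genes (128 nuclei) was named T cells and is not in the cortical microglia. The region comparison of microglia therefore sets a class with such a cluster against a class without it. Endothelial and mural clusters of cortex were mixed and stayed unnamed. Scrublet (scanpy 1.11.5) set no usable threshold in several cortical libraries, so doublets were left in, and removal of the 8% of nuclei with the highest scores was an alternative.

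Counts were summed per library and class (at least 10 nuclei) and fitted over all genes in edgeR 4.0.16 (TMM, filterByExpr, quasi-likelihood test, Benjamini-Hochberg adjustment, threshold 0.05; R 4.3.3). Genotypes were compared without a block. Regions were compared in control mice with the mouse as block, since both samples of a number came from the same mouse (same-numbered libraries correlated in their deviations at 0.01 to 0.38). Alternatives were DESeq2 1.42.0, RLE size factors, no filter, doublet, mitochondrial and marker filters, replicate and age blocks, and leaving out each library. Fits of single clusters and of the 9 shallower cortical libraries were added after seeing the data. In simulated counts with 200 changed genes, 88 of 100 genes changed 2-fold and 100 of 100 changed 4-fold were recovered for cortical oligodendrocytes (10054 genes, 14 false among 202 calls), 83 and 99 of 100 for deep brain microglia (9094 genes, 10 false among 192), and 84 and 100 of 100 for oligodendrocytes between regions (12640 genes, 20 false among 204). In each of these the false calls were more than the threshold allows on average.

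The members, the 3 pathway lists and the markers were chosen with earlier results of these data known. Members were named in every comparison, up to 4 pathway genes past the threshold by smallest p, the 3 most alike genes over classes with at least 10 CPM on average (pseudocount 1 CPM), of which 1 is not reported here, and the 5 most like Alk over deep brain oligodendrocyte libraries. Analyses and figures used Python 3.11.15 and matplotlib 3.10.9.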

Additional observations from a re-analysis of the deposited data

Results flagged for a closer look

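In 104 groups of 6 libraries, the highest or lowest library was compared with the rest by Dixon's ratio at its 95% critical value, which by chance marks about 1 in 20 groups, and 8 libraries stood apart, all as the highest of their group. Alk in cortical neurons was 111.4 CPM in mutant 4, against 83.3 to 93.3 in the other mutants. Mdk in cortical OPC was 144.5 CPM in control 1, from 24 UMIs in 22 nuclei, against 26.9 to 58.8 in the other controls. Mdk was 59.3 CPM in deep brain fibroblasts of mutant 1 and 36.2 CPM in deep brain OPC of mutant 2. Ptn was 1759 CPM in cortical astrocytes of control 1 and 167 CPM in deep brain microglia of mutant 4. Mutant 4 was also the highest for Ptprz1 (62.0 CPM) and for Sdc3 (18.2 CPM) in deep brain oligodendrocytes. Of these groups, the control 1 value of Mdk in OPC and that of Ptn in astrocytes enter a region call, and both calls remained when control 1 was left out (−1.17 to −1.70 for Mdk and −1.13 to −1.28 for Ptn over the 6 mice left out in turn).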

How the results depend on the processing

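Of the values and counts that answer a comparison, 307 under alternatives stayed within their limits and 25 moved. A count of calls could stay within its limit while a gene lost or gained a call. For single genes, a call was lost 28 times and gained 7 times under an alternative, 460 values stayed the same and 10 described values moved. No call reversed. The Alk difference in deep brain oligodendrocytes was 2.24 to 2.29 under other settings, 2.16 to 2.38 with a library left out, and 2.95 and 1.94 in its clusters alone. Members past the threshold went from 0 to 1 in deep brain neurons with DESeq2 (Mdk), in deep brain OPC (Alk) and microglia (Mdk) with no filter, and in cortical astrocytes with no filter, in the 9 shallower libraries, and with the replicate block (Alk 1.05, adjusted p = 0.0117) or the age block (Alk 1.03, adjusted p = 0.0269). Leaving out a library gave 1 to 2 calls in deep brain astrocytes (1 without control 5) and 0 to 1 in cortical astrocytes (1, Alk at 1.21, without mutant 3). Between regions, oligodendrocytes gave 1 in place of 2 calls with RLE, no filter, doublet, mitochondrial or marker filters, 0 to 1 with a mouse left out, and 0 with no replicate block. OPC gave 2 to 4 with a mouse left out (2 without control 2). Astrocytes gave 2 with no replicate block and 3 to 4 with a mouse left out. The same numbers in the 2 genotypes did not meet the rule for pairing, although mice 1 to 4 were of equal age in both. In 0 of 12 comparisons did every pair correlate above 0.1 (35 of 72 pairs did). In 33 of 72 cases, each mutant counted once per comparison, a mutant correlated best with its own number. Regions of the same mouse, which are paired by design, did not meet the rule either (0 of 5 comparisons, 16 of 30 pairs above 0.1). The rule therefore cannot decide whether the numbers of the 2 genotypes are paired. The replicate block changed no other call. Fold changes that never passed numbered 49, of which 19 changed sign in some setting, by at most 0.34. Coarser clusters moved 10 of 48 class levels. The causes were not tested. Whether depth set the calls in classes with few nuclei was not tested.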

Other observations

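Among the nuclei left unnamed, the members were present as well: the 39450 unnamed cortical nuclei had 36.0 ± 9.42 CPM of Alk, 652 ± 120 of Ptn and 90.6 ± 28.6 of Sdc3 over 12 libraries, and the 6735 unnamed deep brain nuclei had 124 ± 31.6 of Alk and 635 ± 35.2 of Ptprz1. Within deep brain fibroblasts, Ptn stood at 1769.5 ± 203 CPM in control and 1976 ± 333 in mutant libraries in the largest cluster, and at 389 ± 67.4 and 423 ± 146 in another cluster of 220 control and 287 mutant nuclei. The Ptn level in the 2 oligodendrocyte clusters of deep brain ran opposite to that of Alk: in the cluster with Il33 and Mobp it was 802 ± 92.6 CPM in control and 995 ± 159 in mutant libraries, and in the cluster with Anln and Hapln2 555 ± 64.4 and 655 ± 121.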
